A study of Mus musculus with 9 samples.

Results

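The reserve state shared by both cell populations was taken as the genes whose 6 reserve libraries all lay above, or all lay below, the 3 parental libraries in CPM (a gene's read count scaled to the total gene count of its library). Of 12540 genes tested, 1402 (11.2%) had all 6 reserve libraries above the parental ones and 1363 (10.9%) had all 6 below. Among the 22254 genes with a count in any library, 1514 lay above and 1445 below. The set described here holds the separated genes that also passed, in the same direction, a test of the mean of both reserve populations against the parental cells (edgeR quasi-likelihood test, Benjamini-Hochberg adjusted p under 0.05). That left 1240 higher genes (9.89% of those tested) and 1289 lower genes (10.3%), or 2529 in all (20.2%). By the test alone, 1982 genes (15.8%) were higher and 2345 (18.7%) lower. Separation and direction chose these genes and are therefore a description. The rule did not use their function, their promoter sequence or their gene length. The test favours larger changes and genes with more counts. Separation leaves out genes on which the reserve populations lie on opposite sides of the parental cells. The sizes of change and the differences between the reserve populations given below are therefore conditioned on this choice.

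Stranded mRNA libraries were sequenced from total RNA of skeletal muscle myoblasts of FVB/N mice, with 3 libraries of the parental population (PAR), 3 of the reserve cells named FRCs Cycle 1 (FRC1) and 3 of those named SRCs Cycle 3 (SRC3). The labels do not spell out FRC or SRC, and name no treatment, transgene or clone. Both reserve populations were isolated, passaged further in conditions for proliferation and then harvested. The passage of the parental cells is not given. Both reserve populations were compared with the same 3 PAR libraries. Anything peculiar to those PAR libraries would therefore appear as a change shared by FRC1 and SRC3. Agreement between FRC1 and SRC3 is thus not independent evidence of a reserve state, and the part of the PAR libraries in it was not tested. Nothing says that the triplicate libraries of a group came from separate cultures, so p-values measure no more than how far these samples differ within a group, and that may be technical.

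Gene counts came to 13012996 to 14336279 per library, and 17071 to 17416 genes had a count. Along the first principal component (59.2% of the variance) SRC3 stood apart from PAR and FRC1, and along the second (21.4%) FRC1 stood apart from PAR. FRC1 replicate 1 lay nearest to PAR on the second component, at -18.4 against -31.3 and -28.2 for the other FRC1 libraries and 24.2 to 25.3 for PAR. Reads with several alignments were 1.16 to 1.20 per gene count in PAR, 1.2525 to 1.32 in FRC1 and 1.43 to 1.45 in SRC3, and their part in the results below was not tested. Of 12 myoblast markers, 10 could be tested, and their summed level was 3560 to 3662 CPM in PAR, 3340 to 3471 in FRC1 and 2661 to 2804 in SRC3. The markers Myf5 (1 count in all 9 libraries) and Msc were at or near 0 in every library.

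Myoblasts are the proliferating progenitors of skeletal muscle fibres. When they are taken out of growth medium most of them leave the cell cycle, switch on myogenin and contractile genes and fuse, while a minority stays mononucleate and undifferentiated and can divide again when growth medium returns. Cells of this kind are called reserve cells, and they are studied in culture as a counterpart of the satellite cells that repair muscle. Secretory and membrane proteins of such cells fold in the endoplasmic reticulum, whose chaperones, oxidoreductases and degradation machinery are induced together through the sensors ATF6, IRE1 (with its target XBP1) and PERK, in the unfolded protein response.

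The gene list with the largest share of its members in the higher set was the unfolded protein and integrated stress response, in which 26 of 42 tested members (61.9%, against 9.89% of all tested genes) were higher and 1 was lower. Its median log2 change was 0.45, against 0.00 over all tested genes. Promoters of these genes are shown first because 8 of the 21 higher members with a RefSeq promoter entry (38.1%) held the endoplasmic reticulum stress element, a spaced motif known from the promoters of such chaperones. The motif searched was CCAAT, then 9 bases of any kind, then CCACG, on both strands, in the 250 bases before each RefSeq start (GRCm38.p6). It was found in 35 of 27025 promoters (0.13%), in 14 of 9063 promoters of tested genes (0.154%), in 10 of 958 of the higher set (1.04%) and in 0 of 954 of the lower set. The 14 promoters of list members that were tested but lay outside the set held 0 matches. A match is a description of the letters and not a measured binding site. The 9 matches in the 8 promoters are given in the orientation that starts with CCAAT, with the letters of the motif in capitals and the 9 bases between them in lower case.
Hspa5, chr2:34772025-34772043: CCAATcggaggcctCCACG
Creld2, chr15:88819520-88819538: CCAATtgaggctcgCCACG
Dnajc3, chr14:118937827-118937845: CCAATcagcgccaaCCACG
Hsp90b1, chr10:86705638-86705656: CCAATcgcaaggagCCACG
Hsp90b1, chr10:86705533-86705551: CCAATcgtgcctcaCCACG
Pdia6, chr12:17266491-17266509: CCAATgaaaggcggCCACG
Calr, chr8:84847075-84847093: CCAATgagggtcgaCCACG
Syvn1, chr19:6046532-6046550: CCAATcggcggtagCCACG
Canx, chr11:50325800-50325818: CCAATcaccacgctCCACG

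Counted from the RefSeq start, the first base of the match lay between -212 and -44. In the Creld2 and Calr promoters, and for the second match of Hsp90b1, it lay on the strand opposite to the gene. RefSeq and GENCODE starts differ, and of the 250 bases 120 in Hspa5, 65 in Hsp90b1, 44 in Pdia6 and 3 in Calr lay over GENCODE exons of the same gene. The Hspa5 match lies inside the GENCODE location of the gene given below. The promoters of Creld2 and Dnajc3 are given in full, 250 bases on the strand of the gene with the match in capitals, because Creld2 had the largest change of the list and Dnajc3 was the J protein with the largest. The match in Creld2 reads in reverse complement here.
Creld2, chr15:88819396-88819645: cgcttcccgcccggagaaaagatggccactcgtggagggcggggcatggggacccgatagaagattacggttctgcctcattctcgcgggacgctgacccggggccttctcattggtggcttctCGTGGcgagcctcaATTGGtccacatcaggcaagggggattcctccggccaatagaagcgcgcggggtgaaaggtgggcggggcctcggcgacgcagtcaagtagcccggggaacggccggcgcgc
Dnajc3, chr14:118937682-118937931: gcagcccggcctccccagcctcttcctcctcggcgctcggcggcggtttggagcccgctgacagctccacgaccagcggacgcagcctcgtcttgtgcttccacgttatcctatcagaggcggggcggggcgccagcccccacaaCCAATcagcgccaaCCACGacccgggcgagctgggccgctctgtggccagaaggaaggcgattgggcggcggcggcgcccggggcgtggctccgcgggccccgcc
Among the other tested genes with the motif, Alg12 and Zfp57 were in the higher set and Hnrnpa3, Pan2, Acacb and Adcy3 were in neither. Alg12, a mannosyltransferase of the endoplasmic reticulum, lies head to head with Creld2 (chr15:88805244-88819318 on the minus strand, chr15:88819646-88826683 on the plus strand, GRCm38). By these locations the Creld2 match also lies within the 250 bases before Alg12, so the matches of both genes may be 1 site. The mean level of Alg12 was 17.7 ± 0.717 CPM in PAR, 31.1 ± 1.28 in FRC1 and 29.5 ± 2.39 in SRC3 (± SD, n = 3 here and below), and its log2 change was 0.76 (SE 0.07, edgeR adjusted p = 1.44e-07). Zfp57, a zinc finger protein known for keeping methylation at imprinted regions, went from 76.4 ± 3.44 to 108 ± 12.3 and 91.4 ± 1.36 CPM (PAR, FRC1 and SRC3 means, in this order wherever 3 means are given).

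The chaperones of the endoplasmic reticulum are given first. Hspa5 (chr2:34771970-34777547, the luminal HSP70 known as BiP) was at 2013, 2017 and 1872 CPM in the PAR libraries, 3492, 3933 and 3996 in FRC1 and 4504, 4696 and 3921 in SRC3. Every reserve library was far above every parental one, FRC1 and SRC3 overlapped, and the log2 change was 1.04 (SE 0.06, edgeR adjusted p = 1.18e-08). Creld2, a secreted stress marker of the endoplasmic reticulum, was at 90.1, 86.9 and 80.2 CPM in the PAR libraries, 193, 201 and 208 in FRC1 and 258, 267 and 215 in SRC3, a log2 change of 1.37 (SE 0.07, edgeR adjusted p = 5.37e-10). The SRC3 libraries were the highest, FRC1 came next and no groups overlapped. Sdf2l1, a luminal cofactor of the chaperones, had 87.7, 90.9 and 80.7 CPM in the PAR libraries, 204, 203 and 226 in FRC1 and 251, 252 and 204 in SRC3. Its log2 change was 1.36, and that of Hyou1, the large HSP170 chaperone, was 1.08, with means of 437 ± 10.6 CPM in PAR, 864 ± 41.6 in FRC1 and 1001 ± 113 in SRC3. The following members were picked after their values were seen, several of them because their promoters are shown above. Hsp90b1 (GRP94) had means of 2422 ± 89.8 CPM in PAR, 3839 ± 145 in FRC1 and 4397 ± 113 in SRC3, Calr of 1873 ± 76.9 CPM in PAR, 2537 ± 64.6 in FRC1 and 2611 ± 21.3 in SRC3 and Canx of 913 ± 29.2 CPM in PAR, 1060.1 ± 27.2 in FRC1 and 1052 ± 46.8 in SRC3. The log2 changes were 0.75 for Hsp90b1, 0.45 for Calr and 0.20 for Canx, the last being a membrane-bound lectin chaperone.

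Co-chaperones and oxidoreductases followed. Dnajc3, the J protein P58IPK, was at 181, 183 and 181 CPM in the PAR libraries, 325, 357 and 342 in FRC1 and 367, 349 and 358 in SRC3, and its log2 change was 0.94 (SE 0.04, edgeR adjusted p = 2.22e-12). The FRC1 and SRC3 libraries of Dnajc3 overlapped in level and stood well above PAR. Dnajb9 (ERdj4) was higher in FRC1 than in SRC3, with means of 16.4 ± 2.28 CPM in PAR, 33.0 ± 1.48 in FRC1 and 24.3 ± 2.47 in SRC3, and the other J protein of the list, Dnajb11, had a log2 change of 0.84. Of the disulfide isomerases, Pdia4 changed by 0.89, Pdia3 by 0.63, Pdia6 by 0.61 and P4hb by 0.48 on the log2 scale. Manf, a secreted survival factor retained in the endoplasmic reticulum, was at 324, 313 and 292 CPM in the PAR libraries, 535, 605 and 584 in FRC1 and 677, 675 and 631 in SRC3. Members of the degradation branch, which extracts misfolded proteins to the proteasome, were also in the set. They were Edem1 (log2 0.78), the ubiquitin ligase Syvn1 (0.75) with its partner Sel1l (0.74), Herpud1 (0.72), Vimp (0.68), Derl1 (0.41) and Derl2 (0.40).

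The sensors and transcription factors of the pathway behaved less evenly. Xbp1, the factor activated by IRE1, rose from 147 ± 11.8 to 227 ± 3.90 and 183 ± 6.69 CPM, and the reserve populations differed (log2 SRC3 minus FRC1 -0.31, edgeR adjusted p = 1.47e-04). Ddit3 (CHOP) rose by 0.54 and Eif2ak3, which encodes PERK, by 0.24. Atf6 was not in the set, because FRC1 lay below PAR and SRC3 above it (111 ± 2.80 to 97.0 ± 4.55 and 157 ± 1.96 CPM). Ern1, which encodes IRE1, had a log2 change of 0.10 that did not pass (edgeR adjusted p = 0.247). Atf4 and several of its targets were outside the set as well. Atf4 itself was at 704, 687 and 655 CPM in the PAR libraries, 694, 723 and 709.8 in FRC1 and 809, 764 and 734 in SRC3, with a log2 change of 0.11 (edgeR adjusted p = 0.053). Asns (521 ± 14.8 to 477 ± 2.87 and 538 ± 23.5 CPM), Chac1 (57.9 ± 3.96 to 49.4 ± 3.39 and 54.1 ± 8.80 CPM), Ppp1r15a (37.4 ± 3.78 to 36.0 ± 4.03 and 42.1 ± 5.94 CPM) and Nupr1 (44.4 ± 1.15 to 47.6 ± 2.77 and 42.3 ± 4.70 CPM) did not pass. Trib3 had means of 66.3 ± 6.79 CPM in PAR, 60.1 ± 2.12 in FRC1 and 131 ± 17.7 in SRC3, with FRC1 overlapping PAR. Vldlr had log2 differences from PAR of -1.12 in FRC1 and 1.06 in SRC3. The 1 lower member was Ddit4, an inhibitor of mTORC1, at 21.7 ± 0.655 CPM in PAR, 17.5 ± 2.15 in FRC1 and 16.1 ± 0.803 in SRC3.

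**Figure D1:**
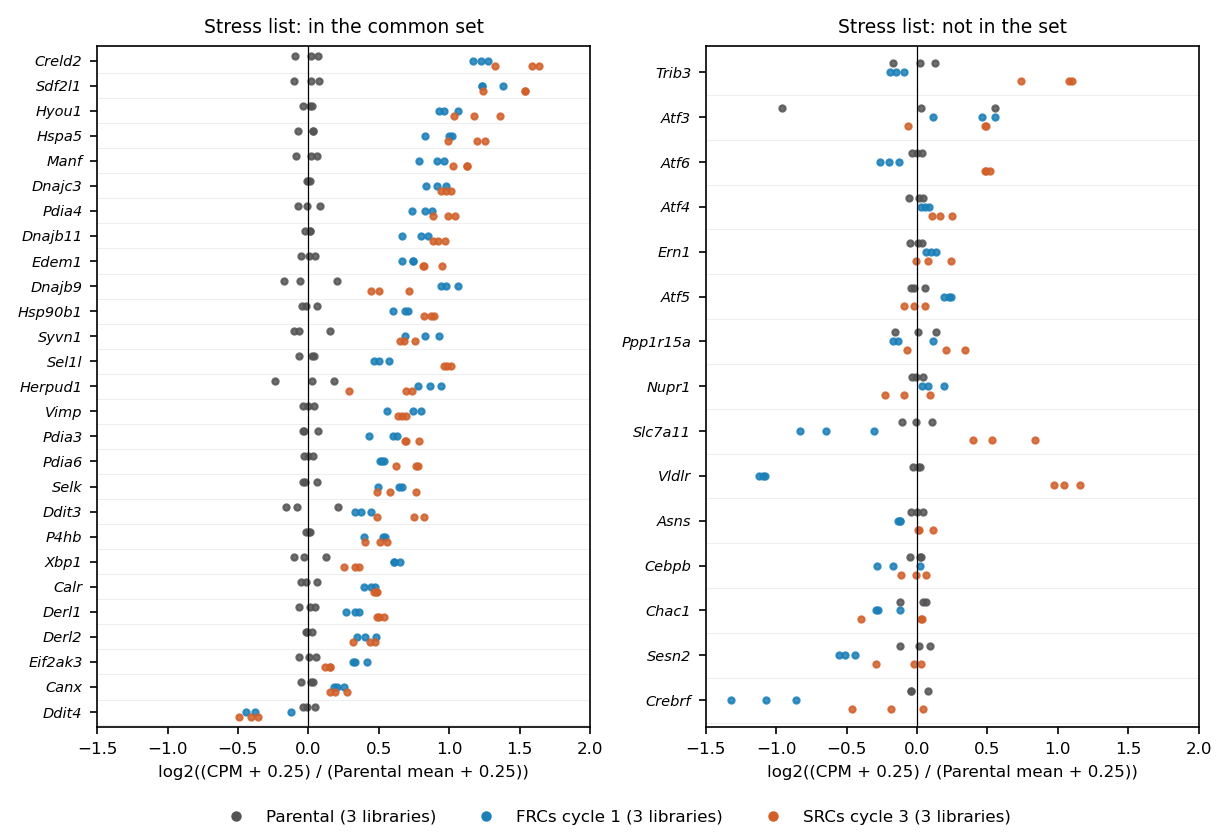
Level of each tested stress gene in each library, as the log2 ratio of CPM plus 0.25 to the PAR mean plus 0.25, with 1 point per library and the members of the set on the left. By the rule, every FRC1 and SRC3 point of the 26 higher members lies to the right of every PAR point. Of the genes on the right, Vldlr and Atf6 have FRC1 and SRC3 on opposite sides of PAR.

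Summed over the list, the level was 14879 to 15710 CPM in PAR, 21755 to 23374 in FRC1 and 24135 to 25834 in SRC3, and the 3 groups did not overlap. This sum includes the 26 members that the rule placed above PAR, and abundant genes such as Hspa5 and Hsp90b1 weigh most in it. Over the list of heat shock proteins and other chaperones the median log2 change was 0.01. Of its 38 tested members 5 (13.2%) were higher and 2 (5.26%) lower, against 9.89% and 10.3% of all tested genes. Among them were the HSP110 member Hsph1 (293 ± 5.75 to 463 ± 19.2 and 332 ± 6.81 CPM) and the collagen chaperone Serpinh1 (1185 ± 8.08 to 1788 ± 55.8 and 1373 ± 116 CPM), both higher in FRC1 than in SRC3. When the 6 reserve libraries were fitted as 1 group, so that the spread includes the difference between FRC1 and SRC3, 25 of the 26 stress genes and 1 of the 5 heat shock genes passed. Hsph1, Serpinh1 and the stress gene Eif2ak3 then missed the threshold (edgeR adjusted p = 0.0792, 0.0544 and 0.0623).

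Over the whole set the median log2 change was 0.30 for the higher genes (0.29 in FRC1 and 0.31 in SRC3) and -0.36 for the lower genes (-0.32 and -0.39). At least 2-fold in both populations were 82 higher genes (0.654% of those tested) and 69 lower genes (0.55%), and 27 and 6 of these reached 4-fold. The reserve populations differed from each other (edgeR adjusted p under 0.05 for SRC3 against FRC1) in 325 of the 1240 higher genes (26.2%) and in 464 of the 1289 lower ones (36.0%), against 33.5% of all tested genes. Where they differed, the change was larger in SRC3 for 229 of the 325 and for 366 of the 464. In 76 of the higher genes the PAR libraries alone would not have passed the filter on low counts, so these entered through the reserve libraries, and in 41 of the lower genes the reserve libraries alone would not have passed.

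The genes with the largest change shared by both populations (the smaller of the FRC1 and SRC3 changes) were 12 on each side. Cspg4 (chr9:56865033-56899870, the proteoglycan NG2 of pericytes and other progenitors) was at 0.558, 0.457 and 1.06 CPM in the PAR libraries, 4.49, 9.71 and 9.27 in FRC1 and 47.0, 46.9 and 63.4 in SRC3. PAR was lowest, SRC3 highest and no groups overlapped (log2 change 4.84, SE 0.39, edgeR adjusted p = 1.85e-05). Lgr6, a receptor of the LGR family that binds R-spondins and enhances Wnt signalling, was at 9.84, 7.08 and 8.33 CPM in the PAR libraries, 17.5, 48.7 and 36.5 in FRC1 and 30.8, 31.9 and 41.1 in SRC3, a log2 change of 2.02 (SE 0.38, edgeR adjusted p = 0.00746). FRC1 replicate 1 was the lowest reserve library and still above PAR. Timp3, an inhibitor of matrix metalloproteinases, had 4.46, 5.41 and 4.80 CPM in the PAR libraries, 10.6, 28.5 and 17.0 in FRC1 and 15.7, 21.2 and 20.3 in SRC3, and Adamtsl3, a secreted matrix protein, had 1.12, 1.37 and 0.635 CPM in the PAR libraries, 4.87, 7.20 and 5.28 in FRC1 and 5.51, 7.81 and 8.22 in SRC3. Their reserve libraries overlapped each other and all lay above PAR, with log2 changes of 1.95 and 2.62. Col7a1, the collagen of anchoring fibrils, went from 4.42 ± 0.703 to 15 ± 4.04 and 19.2 ± 2.24 CPM, Tubb3, a tubulin best known from neurons, from 11.4 ± 1.53 to 38.2 ± 13.6 and 46.2 ± 4.10 CPM, and Ccbe1, a secreted factor of lymphatic growth, from 13.6 ± 1.34 to 39.6 ± 9.00 and 43.4 ± 0.784 CPM. In Timp3, Tubb3, Ccbe1 and Col7a1 FRC1 replicate 1 was likewise the lowest FRC1 library. Taken for FRC1 alone, Lgr6 missed the threshold without PAR replicate 2 (edgeR adjusted p = 0.0526) or 3 (0.0526), and Timp3 without PAR replicate 1 (0.0502).

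**Figure D2:**
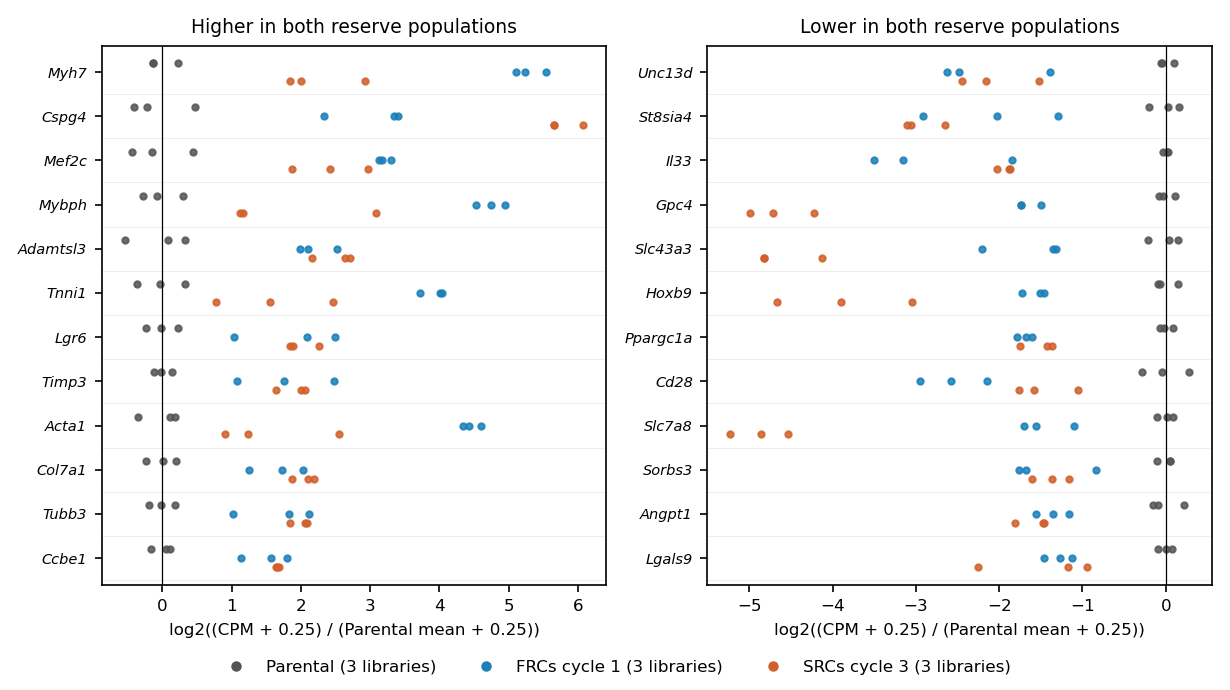
The 12 higher and 12 lower genes with the largest change shared by both reserve populations, as the log2 ratio of CPM plus 0.25 to the PAR mean plus 0.25 in each library, 1 point per library. Lgr6 and Timp3 have FRC1 and SRC3 at about the same distance from PAR (log2 SRC3 minus FRC1 0.01 and 0.02), while Cspg4 is highest in SRC3, Acta1 and Myh7 in FRC1, and Slc43a3, Slc7a8 and Gpc4 are lowest in SRC3.

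On the lower side Unc13d, a priming factor of granule exocytosis, was at 9.97, 11.1 and 9.88 CPM in the PAR libraries, 3.80, 1.47 and 1.64 in FRC1 and 2.13, 3.45 and 1.69 in SRC3, a log2 change of -2.14 (SE 0.22, edgeR adjusted p = 4.26e-06). St8sia4, which adds polysialic acid, went from 9.50 ± 1.20 to 2.30 ± 1.35 and 1.04 ± 0.232 CPM. Il33, a nuclear alarmin cytokine, was at 50.0, 47.8 and 49.4 CPM in the PAR libraries, 13.5, 4.12 and 5.28 in FRC1 and 13.1, 11.9 and 13.2 in SRC3, and its log2 change was -2.34 (SE 0.26, edgeR adjusted p = 4.71e-04). Its lowest PAR library was still above the highest reserve library, which was FRC1 replicate 1, and without that library the FRC1 change moved from -2.72 to -3.39. Ppargc1a, the coactivator PGC-1alpha of mitochondrial biogenesis, was at 8.16, 7.92 and 8.82 CPM in the PAR libraries, 2.43, 2.24 and 2.57 in FRC1 and 2.94, 2.30 and 3.07 in SRC3. Its reserve libraries overlapped and lay well below PAR (log2 change -1.69, SE 0.13, edgeR adjusted p = 9.02e-09). Angpt1, the Tie2 ligand angiopoietin-1, went from 25 ± 3.64 to 9.66 ± 1.36 and 8.23 ± 1.09 CPM and the costimulatory receptor gene Cd28 from 7.60 ± 1.57 to 1.12 ± 0.379 and 2.65 ± 0.778 CPM. Sorbs3 (vinexin, a focal adhesion adaptor) went from 13.1 ± 0.829 to 4.95 ± 1.97 and 4.94 ± 0.797 CPM and the galectin gene Lgals9 from 7.91 ± 0.482 to 3.12 ± 0.387 and 2.94 ± 1.32 CPM.

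Others of the 12 were nearly lost in SRC3 and reduced in FRC1. Gpc4, a heparan sulfate proteoglycan, was at 11, 9.90 and 9.53 CPM in the PAR libraries, 3.42, 2.86 and 2.85 in FRC1 and 0.147, 0.306 and 0.0768 in SRC3. The homeobox gene Hoxb9 was at 9.42, 11.1 and 9.53 CPM in the PAR libraries, 3.35, 2.86 and 3.49 in FRC1 and 0.441, 0.995 and 0.154 in SRC3. Both had 3 separate levels, with FRC1 between PAR and SRC3. Slc7a8, an amino acid exchanger, had 9.21, 8.45 and 9.67 CPM in PAR and 4.11, 2.93 and 2.64 in FRC1. It had 0.0734, 0.153 and 0 CPM in the SRC3 libraries, where 3 counts in all stood against 380 in PAR (ratio 41.0 to 588, 95% counting interval). Slc43a3, a purine transporter, had 2 counts in SRC3 against 285 in PAR (ratio 37.3 to 1127) and a mean of 2.13 CPM in FRC1. Without SRC3 replicate 2 the SRC3 change moved from -5.78 to -6.39 for Gpc4 and from -4.23 to -5.03 for Hoxb9. With the 6 reserve libraries as 1 group, Gpc4, Slc43a3 and Slc7a8 missed the threshold (edgeR adjusted p = 0.0627, 0.0876 and 0.12).

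Some shared changes were nearly the same size in both populations. Among genes changed at least 2-fold in both, the smallest differences between SRC3 and FRC1 were those of Lgr6 (log2 0.01), Timp3 (0.02), Fkbp11 (-0.04), Whrn (0.05), Ccbe1 (0.13) and Chst3 (0.14) among the higher genes. Fkbp11, a prolyl isomerase of the secretory pathway, was at 24.5, 20.4 and 19.5 CPM in the PAR libraries, 44.4, 50.8 and 49.9 in FRC1 and 52.5, 47.9 and 41.0 in SRC3, a log2 change of 1.14 (SE 0.09, edgeR adjusted p = 5.59e-08). Whrn, a scaffold protein of sensory cells, went from 11.9 ± 1.08 to 33.2 ± 12 and 34.7 ± 2.14 CPM, and Chst3, which sulfates chondroitin, from 3.10 ± 0.620 to 6.95 ± 0.841 and 7.67 ± 1.29 CPM. Among the lower genes these were Fam65b, Sorbs3, Casp12, Tap1, Lgals9 and Aldh3b1. Fam65b, an inhibitor of RHOA known from muscle cell polarisation, had 4.6037, 4.95 and 5.72 CPM in the PAR libraries, 2.66, 1.33 and 3.07 in FRC1 and 2.72, 3.06 and 1.23 in SRC3. Casp12, a caspase at the endoplasmic reticulum, went from 10.9 ± 0.934 to 4.6002 ± 1.11 and 4.39 ± 0.683 CPM, against the direction of the chaperones, and Tap1, the peptide transporter of antigen presentation, from 6.64 ± 0.401 to 3.05 ± 0.569 and 3.19 ± 0.380 CPM. The aldehyde dehydrogenase gene Aldh3b1 went from 6.74 ± 0.568 to 2.63 ± 0.913 and 2.78 ± 0.449 CPM.

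Of 45 tested sarcomere and contractile genes, 16 (35.6%) were in the higher set and 6 (13.3%) in the lower set, against 9.89% and 10.3% of all tested genes. Of the 45, 21 passed the filter on low counts only through the reserve libraries, 10 of the 16 among them. The summed level of the list was 2900.2 to 2922 CPM in PAR, 2961 to 3075 in FRC1 and 2297 to 2515 in SRC3. Acta1, skeletal actin, was at 1.53, 1.45 and 0.988 CPM in the PAR libraries, 33.8, 38.0 and 31.7 in FRC1 and 3.45, 8.96 and 2.69 in SRC3. FRC1 was highest, SRC3 intermediate and PAR lowest, with no overlap. Tnni1, slow troponin I, was at 0.419, 0.609 and 0.282 CPM in the PAR libraries, 8.82, 10.8 and 11.1 in FRC1 and 1.76, 3.52 and 0.922 in SRC3, and its log2 change was 3.37 (SE 0.40, edgeR adjusted p = 1.45e-05). The myosin gene Myh7 had 1 count in the 3 PAR libraries together, 440 in FRC1 and 45 in SRC3, a ratio to PAR of 78.8 to 17481 for FRC1 and 8.05 to 1906 for SRC3 (95% counting intervals). Troponin C gene Tnnc2 had 3 counts in PAR, 164 in FRC1 (ratio 18.4 to 269) and 21 in SRC3 (ratio 2.19 to 38.4). Mybph, a myosin-binding protein, went from 0.238 ± 0.101 to 12.8 ± 1.86 and 1.85 ± 1.78 CPM, and Tnnt2, cardiac troponin T, from 62.0 ± 0.579 to 169 ± 34.9 and 142 ± 3.62 CPM. SRC3 replicate 2 was the highest SRC3 library for Acta1, Tnni1, Mybph and Myl1.

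Myog, the myogenin gene, was at 0.767, 0.381 and 0.565 CPM in the PAR libraries, 7.83, 10.8 and 8.34 in FRC1 and 1.47, 2.22 and 1.15 in SRC3, with a log2 change of 2.70 (SE 0.29, edgeR adjusted p = 5.86e-07). Mef2c, its cofactor, had 0.767, 0.305 and 0.424 CPM in the PAR libraries, 7.15, 6.29 and 6.49 in FRC1 and 2.4969, 3.75 and 5.61 in SRC3. By the rule all reserve libraries of both genes were above PAR, and FRC1 lay above SRC3. The 6 lower members of the contractile list were Tpm1, Des, Atp2a1, Cacng1, Ryr1 and Myom2. Des, desmin, was at 727 ± 18.1 CPM in PAR, 621 ± 26.1 in FRC1 and 473 ± 15.1 in SRC3, Ryr1, the calcium release channel, at 20.5 ± 2.21 CPM in PAR, 15.9 ± 2.14 in FRC1 and 7.55 ± 1.14 in SRC3, and Cacng1, a calcium channel subunit, at 36.4 ± 0.594 CPM in PAR, 22.7 ± 0.825 in FRC1 and 19.9 ± 1.56 in SRC3. The fusion genes Tmem8c (Myomaker, 4.97 ± 0.729 to 3.56 ± 0.777 and 1.16 ± 0.271 CPM) and Gm7325 (Myomixer, 1.246 ± 0.0941 to 0.773 ± 0.0695 and 0.525 ± 0.257 CPM) were lower too. Summed over 10 markers of myocytes and myotubes, of which 9 could be tested, 5 were higher and 2 lower, the level was 46.3 to 48.5 CPM in PAR, 115 to 131 in FRC1 and 32.9 to 45.9 in SRC3 and was thus below PAR in SRC3. Cacng1 alone made up 35.7 to 36.8 CPM of the sum in PAR and 18.8 to 21.7 in SRC3. In bulk RNA a smaller or larger share of cells of a type cannot be told apart from less or more RNA per cell.

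With the 6 reserve libraries as 1 group, 10 of the 16 higher genes passed, and Acta1, Mybph, Myog and Tnnc2 missed the threshold (edgeR adjusted p = 0.0675, 0.0538, 0.0575 and 0.0505). The lower genes Tmem8c, Gm7325, Ryr1, Myom2 and Tpm1 missed it as well (0.13, 0.0689, 0.123, 0.0939 and 0.0987), and Gm7325 also without PAR replicate 1 (0.0701) or 3 (0.0574). Without SRC3 replicate 2 the SRC3 change moved from 1.91 to 1.21 for Acta1, from 2.88 to 1.74 for Mybph, from 2.22 to 1.61 for Tnni1 and from 3.58 to 2.77 for Myl1. Taken for SRC3 alone, Acta1 missed the threshold without PAR replicate 1, 2 or 3 (edgeR adjusted p = 0.0706, 0.0815 and 0.0967) and without FRC1 replicate 1 (0.0505), and Mybph without PAR replicate 1, 2 or 3 (0.0675, 0.0966 and 0.0921).

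Of 10 tested myoblast markers, 4 (40%) were lower (Des, Cdh15, Vcam1 and Fgfr4) and 1 (10%), Ncam1, was higher, against 10.3% and 9.89% of all tested genes. Vcam1, an adhesion molecule of satellite cells, was at 212, 216 and 212 CPM in the PAR libraries, 161, 111 and 127 in FRC1 and 133, 135 and 122 in SRC3, a log2 change of -0.71 (SE 0.09, edgeR adjusted p = 3.07e-04). Fgfr4, a fibroblast growth factor receptor of myoblasts, went from 26.4 ± 2.16 to 16.1 ± 3.81 and 9.21 ± 0.646 CPM, and Cdh15, M-cadherin, from 268 ± 8.06 to 223 ± 17.2 and 149 ± 15.1 CPM. Myod1, the lineage factor, was at 771, 759 and 788 CPM in the PAR libraries, 788, 772 and 754 in FRC1 and 523, 556 and 542 in SRC3. FRC1 overlapped PAR and SRC3 lay below both, so it was not in the set. Pax7, the satellite cell factor, was at 135, 119 and 125 CPM in the PAR libraries, 122, 106 and 114 in FRC1 and 69.5, 75.2 and 73.7 in SRC3, where 1 FRC1 library overlapped PAR and SRC3 lay below. Of 29 tested satellite cell and quiescence genes, 10 (34.5%) were lower and 2 (6.90%) higher, with a median log2 change of -0.14. The lower ones included Cav1, the coat protein of caveolae, at 160.0, 152 and 172 CPM in the PAR libraries, 86.3, 45.3 and 55.6 in FRC1 and 105, 94.0 and 89.3 in SRC3, and the Notch target Hey1 at 10.3 ± 1.20 CPM in PAR, 7.66 ± 0.747 in FRC1 and 2.07 ± 0.0844 in SRC3. The 2 higher ones were Ncam1 and Cd34, a sialomucin of progenitors (1.13 ± 0.197 to 1.81 ± 0.0717 and 4.29 ± 1.43 CPM). With the 6 libraries as 1 group 6 of the 10 passed, and Cdh15, Hey1 and Cd34 did not (edgeR adjusted p = 0.0861, 0.189 and 0.0597).

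Of 23 tested Notch pathway genes 2 (8.70%) were higher and 6 (26.1%) lower, against 9.89% and 10.3% of all tested genes (median log2 change -0.19). The higher ones were the ligand genes Jag1 (10.1 ± 1.08 to 18.9 ± 4.81 and 18.1 ± 1.88 CPM) and Jag2 (174 ± 3.01 to 214 ± 7.34 and 211 ± 6.28 CPM). The lower ones included the ligand gene Dll1 (7.29 ± 1.09 to 3.07 ± 0.282 and 4.18 ± 0.308 CPM), the receptor gene Notch1 (105 ± 6.33 to 76.6 ± 14.266 and 91.3 ± 6.55 CPM) and Hey1. With the 6 libraries as 1 group, 2 of the 6 lower genes passed, and Hey1 and Notch1 were not among them (edgeR adjusted p = 0.189 and 0.0911). Notch1 missed the threshold also without PAR replicate 3 (0.0855) or SRC3 replicate 2 (0.056). Of 24 tested myogenic regulators and fusion genes, 8 (33.3%) were lower and 3 (12.5%) higher. The lower ones included Eya1, Mef2d and Cdon, whose log2 changes were -0.48, -0.24 and -0.27. Eya1 did not pass as 1 group (edgeR adjusted p = 0.0562).

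Of 53 tested genes of DNA replication and the G1/S transition, 17 (32.1%) were higher and 6 lower, 23 did not pass the test, and the median log2 change was 0.11. Cdc6, which loads the replicative helicase, was at 51.5, 50.9 and 51.7 CPM in the PAR libraries, 68.4, 73.0 and 72.7 in FRC1 and 79.2, 81.7 and 80.4 in SRC3, a log2 change of 0.55 (SE 0.05, edgeR adjusted p = 4.03e-08). Orc1, a subunit of the origin recognition complex, went from 16.1 ± 2.01 to 22.8 ± 0.265 and 20.9 ± 0.390 CPM, and Mcm10, an initiation factor, from 51.6 ± 3.45 to 65.9 ± 5.08 and 66.5 ± 0.967 CPM. All 3 had every reserve library above PAR, as the rule requires. The 6 lower genes were Ccnd1, Ccnd2, Ccnd3, Ccne1, Cdk6 and Rrm1, and all but Rrm1, a subunit of ribonucleotide reductase, encode cyclins of G1 or their kinase. Ccnd1, named after its values were seen, was at 1966, 1995 and 1962 CPM in the PAR libraries, 1711, 1569 and 1568 in FRC1 and 1195, 1244 and 1155 in SRC3, and its log2 change was -0.51 (SE 0.04, edgeR adjusted p = 6.57e-09). Ccnd2 was at 437, 445 and 439 CPM in the PAR libraries, 352, 317 and 327 in FRC1 and 209.5, 220.5 and 199.95 in SRC3. Both showed FRC1 below PAR and SRC3 below FRC1, and so did Ccnd3 (186 ± 5.39 to 156 ± 17.5 and 68.1 ± 2.41 CPM). Ccnd3 and Ccne1 missed the threshold with the reserve libraries as 1 group (edgeR adjusted p = 0.213 and 0.189). Another G1/S cyclin gene, Ccne2, was higher by the test (log2 change 0.25, edgeR adjusted p = 0.0377) but was not separated in all libraries. Of 46 tested mitosis and G2/M genes 6 were higher, among them Mybl2, Birc5 and Foxm1, and 1, Ect2, was lower. Mki67, the proliferation marker, was at 258, 247 and 277 CPM in the PAR libraries, 258, 268 and 295 in FRC1 and 257, 323 and 356 in SRC3, with overlapping groups and a log2 change of 0.16 that did not pass (edgeR adjusted p = 0.235).

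Of 34 tested p53 targets, 11 (32.4%, against 10.3% of all tested genes) were lower and 0 were higher in the set, and the median log2 change was -0.28. Trp53inp1, a p53-induced nuclear protein of autophagy and cell death, was at 15.1, 14.1 and 17.5 CPM in the PAR libraries, 5.17, 5.10 and 5.42 in FRC1 and 6.32, 4.90 and 11.9 in SRC3. Ephx1, an epoxide hydrolase, was at 7.11, 7.16 and 5.37 CPM in the PAR libraries, 2.28, 1.89 and 2.496 in FRC1 and 1.84, 2.76 and 3.30 in SRC3, and Eda2r, a death receptor of the TNF receptor family, at 27.9, 27.8 and 30.6 CPM in the PAR libraries, 15.9, 17.0 and 11.4 in FRC1 and 10.2, 10.3 and 11.1 in SRC3. As the rule requires, all reserve libraries of these 3 genes lay below PAR, and the log2 changes of the genes were -1.30, -1.44 and -1.22. Zmat3, an RNA-binding growth suppressor, went from 158 ± 11.3 to 97.2 ± 6.58 and 55.8 ± 4.84 CPM, and Btg2, an antiproliferative factor, from 6.59 ± 0.853 to 4.28 ± 0.468 and 1.95 ± 0.578 CPM. The other 6 were Ccng1, Psrc1, Ercc5, Apaf1, Phlda3 and Gtse1. By the test alone, 20 of the 34 were lower and 1 was higher. Fitted with the reserve libraries as 1 group, Psrc1 and Btg2 missed the threshold (edgeR adjusted p = 0.0594 and 0.0519).

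Of the 24 tested CDK inhibitors and pocket proteins, 5 (20.8%) were lower (Cdkn2a, Cdkn2b, Btg2, Tob1 and Tob2) and 1 (4.17%) was higher (Gadd45b). The shares over all tested genes were 10.3% and 9.89%. The test was not passed by 14, and the median log2 change was -0.04. Cdkn2a (chr4:89274471-89294653), which encodes p16INK4a and p19ARF, was at 156, 155 and 156 CPM in the PAR libraries, 99.1, 79.1 and 74.1 in FRC1 and 0.294, 0.536 and 0.231 in SRC3. Cdkn2b (chr4:89306299-89311039), which encodes p15INK4b, was at 90.6, 90.8 and 85.8 CPM in the PAR libraries, 60.4, 44.6 and 48.1 in FRC1 and 0, 0.306 and 0.0768 in SRC3. In both genes FRC1 lay between PAR and SRC3, SRC3 was close to 0, and FRC1 replicate 1 was the highest reserve library. In FRC1 the log2 changes were -0.90 and -0.81. Neither passed with the 6 libraries as 1 group (edgeR adjusted p = 0.388 and 0.402). Counts per gene do not separate the transcripts of Cdkn2a. Of the 5, 1 passed with the 6 libraries as 1 group, and Tob1 was among those that did not (edgeR adjusted p = 0.103).

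**Figure D3:**
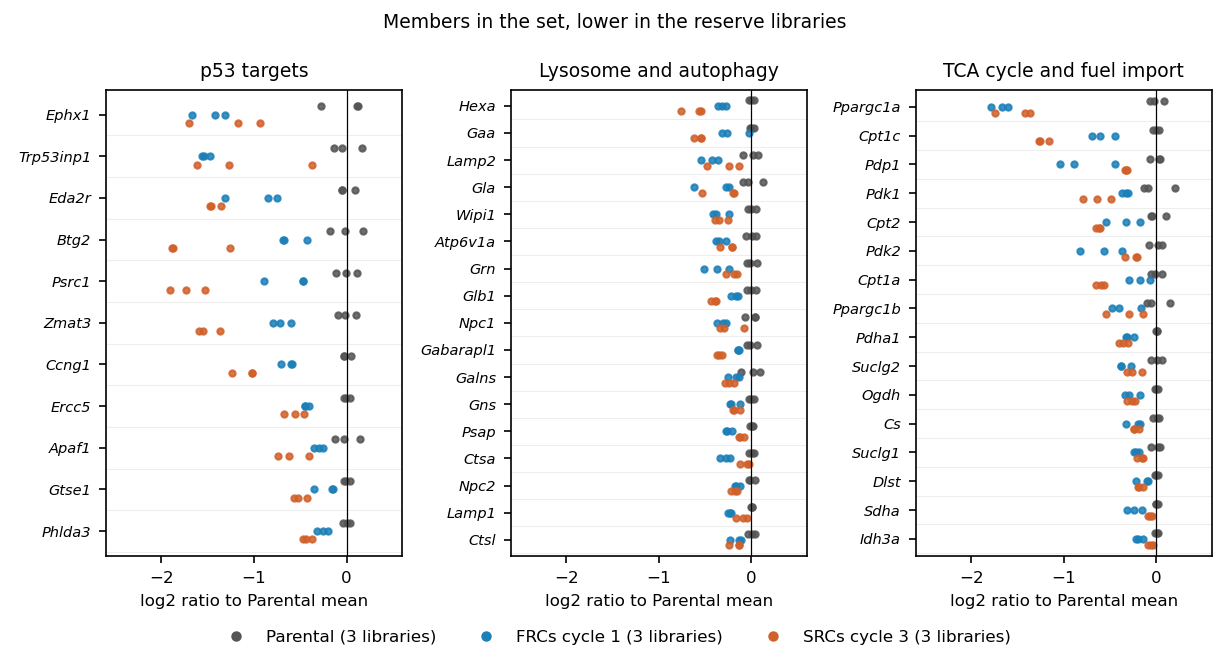
Members of the set that were lower in the reserve libraries among p53 targets, lysosome and autophagy genes and genes of the tricarboxylic acid cycle and fuel import (16 of the 17 in that list), as the log2 ratio of CPM plus 0.25 to the PAR mean plus 0.25, 1 point per library. By the rule, each row has all its FRC1 and SRC3 points to the left of its PAR points. SRC3 lies furthest left for Zmat3, Psrc1 and Ccng1.

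Of 78 tested ribosomal protein genes, 28 (35.9%) were in the higher set and 0 in the lower one, against 9.89% and 10.3% of all tested genes. The median log2 change over all 78 was 0.10. Folds of the 28 ranged from 1.08 to 1.26, and tested against a 1.5-fold change 0 were in the higher set. The list summed to 29640 to 30779 CPM in PAR, and changes this small pass more readily in genes with many counts. Its share is therefore not like for like with that over all tested genes. Rps21 was at 270.4, 283 and 280.0 CPM in the PAR libraries, 312, 352 and 341 in FRC1 and 360.4, 355 and 326 in SRC3, Rpl35a at 47.3, 46.2 and 50.2 CPM in the PAR libraries, 55.3, 61.3 and 64.7 in FRC1 and 64.8, 63.7 and 55.3 in SRC3 and Rpl10a at 235, 235 and 230.3 CPM in the PAR libraries, 259, 293 and 274 in FRC1 and 274, 282 and 288 in SRC3. In each of these the PAR libraries were the lowest and FRC1 and SRC3 overlapped. Without PAR replicate 3 the count was 18, and with the 6 libraries as 1 group it was 15. Copies of these genes elsewhere in the genome take reads with several alignments, which were not counted, so their levels rest on unique reads.

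Of 44 tested lysosome and autophagy genes, 17 (38.6%) were lower and 2 higher, with a median log2 change of -0.15. Hexa, a subunit of beta-hexosaminidase, was at 47.6, 46.9 and 48.7 CPM in the PAR libraries, 38.3, 37.0 and 39.5 in FRC1 and 32.7, 32.1 and 28.0 in SRC3, a log2 change of -0.48 (SE 0.06, edgeR adjusted p = 3.64e-06). Lamp2, a lysosomal membrane protein, went from 162 ± 9.07 to 119 ± 7.62 and 133 ± 16.3 CPM, the acid glucosidase gene Gaa from 88.5 ± 1.58 to 77.1 ± 8.39 and 59.7 ± 1.90 CPM, and Wipi1, a factor of autophagosome formation, from 172 ± 5.21 to 135 ± 8.79 and 137 ± 7.04 CPM. The 2 higher ones were the cathepsin gene Ctsh (29.7 ± 2.70 to 37.3 ± 1.04 and 64.1 ± 5.38 CPM) and Becn1 (106 ± 1.98 to 120.4 ± 2.81 and 115 ± 3.25 CPM). Of 43 tested genes of the tricarboxylic acid cycle and mitochondrial fuel import, 17 (39.5%) were lower and 1, Nrf1, was higher, again with a median of -0.15. These included citrate synthase (Cs, 653 ± 13.4 to 555 ± 31.3 and 559.5 ± 12.6 CPM), pyruvate dehydrogenase (Pdha1, 457 ± 2.54 to 372 ± 12.2 and 357 ± 12 CPM) and the carnitine palmitoyltransferase Cpt2 (36.1 ± 2.26 to 28.4 ± 3.64 and 23.3 ± 0.402 CPM). Cpt1c, named for the same family, was lower too (19.6 ± 0.455 to 13 ± 1.19 and 8.21 ± 0.337 CPM), and its part in mitochondrial fuel import was not tested. Cpt1a was lower (log2 change -0.40) but missed the threshold as 1 group (edgeR adjusted p = 0.0775). Besides Ppargc1a, its relative Ppargc1b was lower (22.1 ± 2.15 to 17.4 ± 1.98 and 17.7 ± 2.44 CPM). As 1 group, Gaa, Ctsh, Becn1 and Ppargc1b missed the threshold (edgeR adjusted p = 0.0541, 0.0762, 0.0572 and 0.0549). Becn1 missed it also without PAR replicate 2 (0.0524) or 3 (0.0723), and Ppargc1b without PAR replicate 3 (0.0859).

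Of 50 tested nuclear genes of oxidative phosphorylation, 5 (10%, against 10.3% of all tested genes) were lower and 1 was higher, and of 12 tested genes encoded by mitochondrial DNA 0 were in the set, with medians of -0.48 in FRC1 and 0.21 in SRC3. Without PAR replicate 3 the 5 became 9. Of 35 tested glycolysis and hypoxia genes, 8 (22.9%) were lower and 2 (5.71%) higher. Pfkm, the muscle phosphofructokinase, went from 40.4 ± 2.36 to 30.9 ± 4.35 and 22.0 ± 1.96 CPM, and Hk1, a hexokinase, from 194 ± 9.64 to 136 ± 12.3 and 150.1 ± 9.60 CPM. Of 40 tested glutathione, thioredoxin and NRF2 target genes 8 (20%) were lower, among them Nfe2l2 itself (252 ± 0.824 to 201 ± 12.4 and 177 ± 4.48 CPM) and Gstm1 (38.4 ± 2.88 to 22.4 ± 1.48 and 28.8 ± 3.51 CPM). The 1 higher gene (2.5%) was Mgst3, which did not pass with the 6 libraries as 1 group (edgeR adjusted p = 0.107). Of 46 genes of amino acid synthesis and tRNA charging 2 were higher and 3 lower, or 4.35% and 6.52%, against 9.89% and 10.3% of all tested genes. Sterol and fatty acid synthesis had 2 (5%) higher and 6 (15%) lower of 40, against the same 9.89% and 10.3%.

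**Figure D4:**
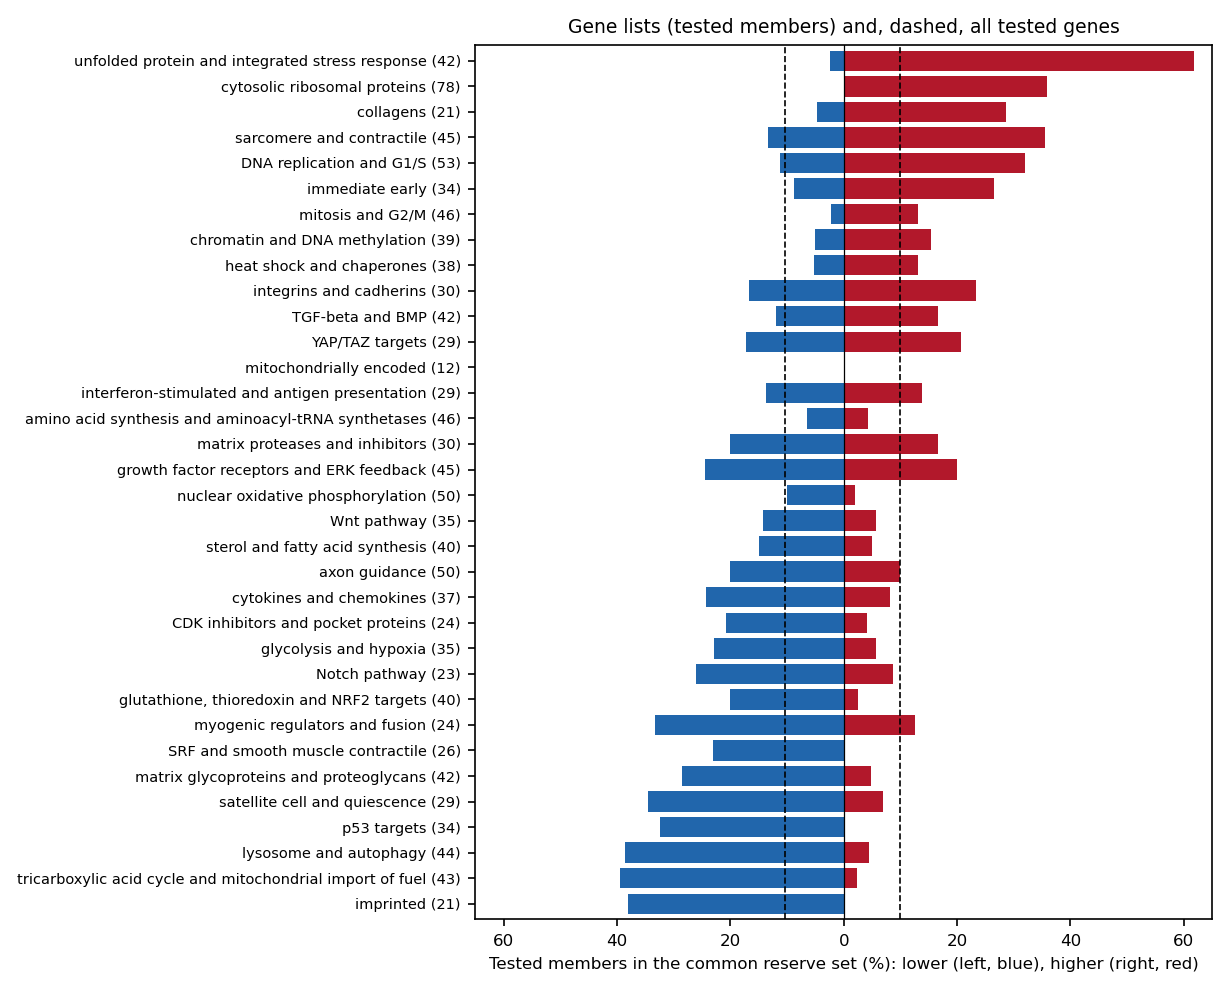
Share of each gene list's tested members that were in the higher set (right) or the lower set (left), in percent, with the number tested in brackets and the shares over all tested genes, 9.89% and 10.3%, as dashed lines. The stress list reaches 61.9% on the higher side and the lists of fuel oxidation, lysosome and imprinted genes lie between 38.1% and 39.5% on the lower side.

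Of 21 tested imprinted genes 8 (38.1%) were lower and 0 higher in the set, and the median log2 change was -0.36. H19, a noncoding RNA of the Igf2 locus, was at 1061, 1011 and 1077 CPM in the PAR libraries, 827, 583 and 723 in FRC1 and 148, 163 and 141 in SRC3, a log2 change of -1.69 (SE 0.10, edgeR adjusted p = 2.08e-06). Plagl1, a zinc finger factor that regulates other imprinted genes, was at 217, 239.7 and 267 CPM in the PAR libraries, 186, 171 and 155 in FRC1 and 117, 89.8 and 136 in SRC3, and Peg3 at 1403, 1352 and 1541 CPM in the PAR libraries, 1103, 939.6 and 1077 in FRC1 and 848, 844 and 1123 in SRC3. By the rule all reserve libraries of the 3 genes lay below PAR, and SRC3 was the lower population in H19 with no overlap. Usp29, the neighbour of Peg3, went from 33.2 ± 2.58 to 24.3 ± 2.34 and 24.0 ± 3.21 CPM and Igf2r, the receptor that clears IGF2, from 127 ± 6.40 to 88.4 ± 8.84 and 96.9 ± 10.7 CPM. Ndn was at 0.767, 0.837 and 1.06 CPM in PAR, 0.532, 0.279 and 0.285 in FRC1 and 0 in every SRC3 library, where 3 counts, the limit that a count of 0 allows, would be 0.220 to 0.231 CPM. Igf2 itself was not in the set, since FRC1 lay above and SRC3 below PAR (0.788 ± 0.160 to 2.20 ± 0.399 and 0.152 ± 0.0786 CPM). Of the 8, 5 passed with the 6 libraries as 1 group, and H19 and Ndn did not (edgeR adjusted p = 0.244 and 0.0666).

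Of 45 tested genes of growth factors, their receptors and ERK feedback, 9 (20%) were higher and 11 (24.4%) lower. Among the ligands, Fgf2, basic fibroblast growth factor, was at 1.33, 0.761 and 0.918 CPM in the PAR libraries, 3.95, 6.99 and 5.28 in FRC1 and 4.26, 4.06 and 4.53 in SRC3, a log2 change of 2.24 (SE 0.24, edgeR adjusted p = 4.91e-07). Its reserve libraries were all above PAR and FRC1 overlapped SRC3. Pdgfa, a platelet-derived growth factor, went from 66.6 ± 4.74 to 97.0 ± 8.28 and 111 ± 6.54 CPM, and Pdgfb from 0.164 ± 0.178 to 0.481 ± 0.138 and 3.54 ± 0.829 CPM. Without PAR replicate 3 the log2 change of Pdgfb moved from 2.89 to 4.01. Among the receptors, Erbb3 was higher (2.41 ± 0.659 to 4.20 ± 0.473 and 8.57 ± 1.63 CPM) and Egfr (74.9 ± 2.89 to 60.1 ± 6.95 and 28.3 ± 3.73 CPM), Fgfr4 and Fgfr2 were lower. Fgfr2 had 3 counts in SRC3 against 82 in PAR (ratio 8.61 to 129). Fitted as 1 group, Pdgfb, Egfr and Fgfr2 missed the threshold (edgeR adjusted p = 0.0851, 0.163 and 0.0912). Of 42 TGF-beta and BMP genes 7 (16.7%) were higher and 5 (11.9%) lower, against 9.89% and 10.3% of all tested genes. Grem1, a secreted BMP antagonist, was at 0.140, 0.152 and 0.212 CPM in the PAR libraries, 0.760, 1.33 and 1.28 in FRC1 and 9.03, 11.2 and 6.30 in SRC3. It rose in steps from PAR to FRC1 to SRC3 with no overlap, with a log2 change of 4.16. Inside the pathway the inhibitor Smad7 (34.6 ± 1.23 to 58.1 ± 13 and 48.2 ± 3.69 CPM) and the ligand Tgfb1 (23.6 ± 1.23 to 31.1 ± 3.08 and 35.2 ± 3.27 CPM) were higher, and the receptor Tgfbr2 (151 ± 1.97 to 100.02 ± 7.29 and 113 ± 5.77 CPM), Smad3 (41.7 ± 0.184 to 31.4 ± 5.83 and 30.0 ± 2.29 CPM) and the activin antagonist Fst (12.2 ± 1.96 to 7.11 ± 1.02 and 4.43 ± 0.580 CPM) were lower. Without PAR replicate 1 the lower count was 3. Beside the receptors, Igf2bp3, an RNA-binding protein of the IGF2 mRNA family, was at 4.88, 4.42 and 4.31 CPM in the PAR libraries, 8.29, 9.08 and 10.8 in FRC1 and 89.2, 91.0 and 94.2 in SRC3, while its relative Igf2bp1 went from 1.09 ± 0.248 to 0.387 ± 0.0597 and 0.329 ± 0.122 CPM. The step from PAR was small in FRC1 and large in SRC3 for Igf2bp3, which was named after its values were seen and did not pass with the reserve libraries as 1 group (edgeR adjusted p = 0.105).

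Wnt7b, a Wnt ligand, was higher (60.5 ± 3.50 to 98.7 ± 12.7 and 153 ± 6.17 CPM), and of 35 Wnt pathway genes 2 were higher and 5 lower. Immediate early genes gave 9 (26.5%) higher and 3 (8.82%) lower of 34. Fosb, an AP-1 factor, went from 1.29 ± 0.260 to 4.15 ± 0.981 and 5.83 ± 0.793 CPM, and the nuclear receptor gene Nr4a1 from 5.56 ± 0.841 to 11.8 ± 0.953 and 8.30 ± 1.08 CPM. Of 29 YAP/TAZ targets 6 (20.7%) were higher, among them Cyr61 (107 ± 12 to 185 ± 22.0 and 153 ± 14.1 CPM) and the ectonucleotidase Nt5e (20.3 ± 0.412 to 35.7 ± 4.75 and 76.4 ± 3.40 CPM), and 5 (17.2%) lower. Among the 6 higher genes, 1 passed the filter on low counts only through the reserve libraries. Without FRC1 replicate 1 the lower count was 8, and without PAR replicate 1 it was 9. Ctgf, the other CCN factor of that list, passed (log2 change 2.30, SE 0.64, edgeR adjusted p = 0.0182) but not without PAR replicate 2 or 3 (edgeR adjusted p = 0.0713 and 0.0727). Its log2 change moved to 3.08 without PAR replicate 1, and its FRC1 change from 2.41 to 1.44 without FRC1 replicate 2.

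Of 42 tested matrix glycoproteins and proteoglycans 12 (28.6%) were lower and 2 higher, with a median log2 change of -0.11 (-0.01 in FRC1 and -0.36 in SRC3). Their summed level was 8163 to 8383 CPM in PAR, 8632 to 9058 in FRC1 and 6079 to 6743 in SRC3. Nid2, a basement membrane nidogen, was at 26.6, 31.7 and 29.9 CPM in the PAR libraries, 16.5, 11 and 14.5 in FRC1 and 4.04, 3.60 and 2.38 in SRC3, a log2 change of -2.11 (SE 0.12, edgeR adjusted p = 1.17e-09). FRC1 lay between PAR and SRC3 without overlap. Lama2, the laminin chain of muscle basement membrane, went from 53 ± 2.55 to 29.3 ± 4.67 and 15.6 ± 2.05 CPM and Fbn1, fibrillin-1, from 48.9 ± 3.28 to 43.1 ± 2.52 and 10.1 ± 0.908 CPM. Besides Cspg4 the other higher gene was Emilin1. With the 6 libraries as 1 group 5 of the 12 passed, and Nid2 and Fbn1 did not (edgeR adjusted p = 0.0745 and 0.362). Of 21 collagen genes 6 (28.6%) were higher, among them Col7a1, Col16a1 (2.74 ± 0.138 to 5.55 ± 0.765 and 11.3 ± 2.32 CPM) and Col18a1 (195 ± 4.44 to 216 ± 5.70 and 433 ± 17.0 CPM). The 1 lower gene (4.76%) was Col3a1 (558 ± 16.7 to 333 ± 58.3 and 279.5 ± 13 CPM). Col18a1 missed the threshold as above (edgeR adjusted p = 0.174). Among 50 axon guidance genes 5 (10%) were higher and 10 (20%) lower, against 9.89% and 10.3% of all tested genes. The lower ones included the receptor Robo1 at 94.8, 93.4 and 96.7 CPM in the PAR libraries, 59.6, 46.9 and 48.6 in FRC1 and 29.7, 32.0 and 34 in SRC3 and the semaphorin Sema3e at 220.3, 222 and 234 CPM in the PAR libraries, 141, 104 and 114 in FRC1 and 123, 115 and 117 in SRC3. Both had every reserve library far below PAR, with log2 changes of -1.24 and -0.93, and the Sema3e levels of FRC1 and SRC3 overlapped. Of the 10 lower genes, 5 passed with the 6 libraries as 1 group. Of 37 cytokine and chemokine genes 9 (24.3%) were lower, led by Il33 and Angpt1, and 3 (8.11%) higher. Of 26 SRF targets and smooth muscle contractile genes 6 (23.1%) were lower and 0 higher. The lower ones included Myh10, nonmuscle myosin IIB, at 132, 135 and 137 CPM in the PAR libraries, 114, 102 and 111 in FRC1 and 0.661, 0.766 and 0.538 in SRC3, where FRC1 lay below PAR by less than SRC3 did. With the 6 libraries as 1 group Myh10 did not pass (edgeR adjusted p = 0.568), and 2 of the 6 did.

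Of 30 tested matrix proteases and inhibitors 5 (16.7%) were higher and 6 (20%) lower, against 9.89% and 10.3% of all tested genes. Adam12, a membrane metalloproteinase of fusing and regenerating muscle, went from 0.246 ± 0.196 to 3.25 ± 1.98 and 1.31 ± 0.268 CPM, and without PAR replicate 2 its log2 change moved from 3.05 to 3.79. Plaur, the urokinase receptor, was at 167 ± 4.81 to 209 ± 8.60 and 213 ± 8.77 CPM, and Adamts4, an aggrecanase, at 35.9 ± 2.53 to 26.4 ± 1.36 and 13.1 ± 2.502 CPM. Of 30 tested integrins and cadherins 7 (23.3%) were higher, among them Cdh6 (9.09 ± 1.24 to 16.6 ± 3.34 and 16.4 ± 1.91 CPM), the neural adhesion molecule L1cam (4.45 ± 0.320 to 7.26 ± 1.11 and 20.2 ± 2.78 CPM) and the integrin subunit Itgb5 (11.7 ± 0.953 to 19.1 ± 3.16 and 28.6 ± 1.80 CPM). The 5 lower ones (16.7%) included N-cadherin (Cdh2, 269 ± 7.99 to 219.6 ± 7.74 and 194 ± 12.1 CPM). Of 29 interferon-stimulated and antigen presentation genes 4 (13.8%) were higher and 4 (13.8%) lower. The higher ones included Ddx58, the RNA sensor RIG-I, at 1.10 ± 0.326 to 2.18 ± 0.532 and 2.11 ± 0.184 CPM and Bst2, tetherin, at 8.49 ± 0.542 to 11.2 ± 1.74 and 20.2 ± 2.36 CPM. Irf1 (20.4 ± 0.790 to 15.5 ± 2.81 and 13 ± 1.02 CPM) and Tap1 were among the lower ones. Ddx58 missed the threshold without PAR replicate 2 (edgeR adjusted p = 0.0532). L1cam, Adamts4 and Bst2 missed it as 1 group (edgeR adjusted p = 0.0624, 0.0881 and 0.0644). Psmb8, an immunoproteasome subunit, missed the threshold with most single libraries left out and with the 6 libraries as 1 group (edgeR adjusted p = 0.155). Of 39 chromatin and DNA methylation genes 6 (15.4%) were higher, led by the methyltransferase Dnmt3b (1.59 ± 0.167 to 2.59 ± 0.509 and 3.18 ± 0.311 CPM), and 2 (5.13%) lower. With the 6 libraries as 1 group 3 were higher.

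Genes that leave PAR in opposite directions lie outside the shared state. Acta2, smooth muscle actin, was at 64.7, 73.2 and 62.5 CPM in the PAR libraries, 174, 232 and 192 in FRC1 and 7.71, 14.2 and 3.84 in SRC3. Fibcd1, a membrane receptor for acetylated sugars, was at 11.6, 12.3 and 12.4 CPM in the PAR libraries, 31.3, 59.0 and 46.2 in FRC1 and 4.92, 4.75 and 4.00 in SRC3. FRC1 was above and SRC3 below PAR in both, with no overlap. Platr3, a noncoding RNA, had 179 counts in PAR and 0 in SRC3, at least 56.9-fold lower against a floor of 3 counts over the SRC3 group, while its FRC1 libraries had 10.5, 12.9 and 11.6 CPM. In the other direction, Cd24a, a mucin-like surface protein, was at 5.72, 5.33 and 5.44 CPM in the PAR libraries, 1.98, 2.59 and 1.4976 in FRC1 and 80.5, 59.6 and 89.8 in SRC3, and Gpnmb, a transmembrane glycoprotein, at 3.21, 2.13 and 2.54 CPM in the PAR libraries, 1.06, 0.559 and 1.07 in FRC1 and 16.2, 15.2 and 22.3 in SRC3. The same order, FRC1 lowest and SRC3 highest, held for Rab7b (1.66 ± 0.216 to 0.482 ± 0.177 and 5.56 ± 1.64 CPM) and Sapcd1 (11 ± 0.978 to 3.11 ± 1.01 and 30.5 ± 6.10 CPM).

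**Figure D5:**
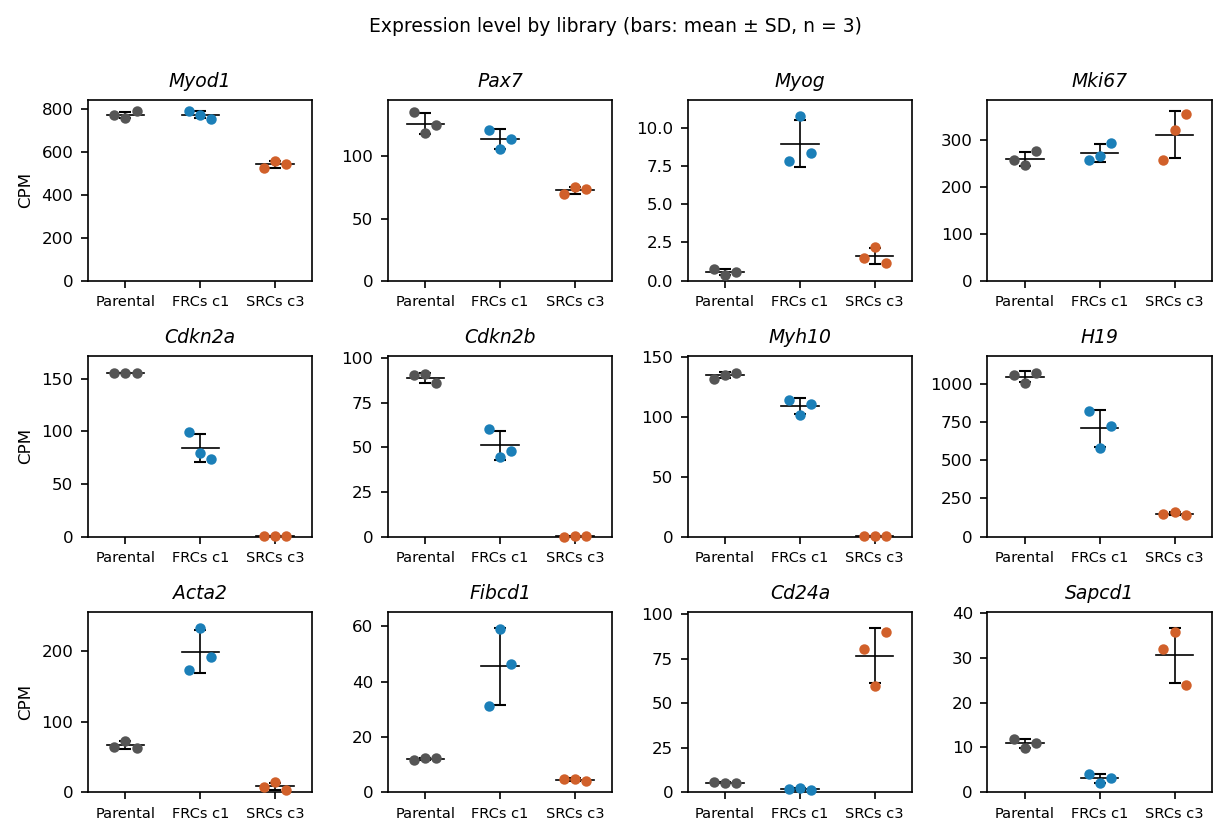
CPM in each library (points) with the mean and SD of the 3 libraries of a group (bars), on a linear axis from 0, for 12 genes described above. Cdkn2a and Cdkn2b fall in steps to near 0 in SRC3, Acta2 is highest in FRC1 and lowest in SRC3, and Cd24a is highest in SRC3.

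Features that the rule did not use are given as a description. Separation and the test depend on counts, and the median PAR level was 41.6 CPM in the higher set, 53.4 in the lower set and 32.0 over all tested genes. The part of this difference in level in the features below was not tested. Protein-coding genes made up 96.4% of the higher and 97.4% of the lower set, against 90.7% of tested genes. The median gene span was 16014 bases for the higher genes, 39849 for the lower ones and 21684 for all tested genes. The median exonic length was 4004, 5245 and 4336.5 bases. By chromosome, the share of tested genes in the higher set ran from 6.21% on X to 12.9% on 7 among the autosomes and X, and the share in the lower set was largest on 3 (13.9%). At the edge of the rule, with no test, Metap1 was just inside on the higher side, with 112.95 CPM in the highest PAR library and 112.963 in the lowest reserve library. Stip1 was just outside, with 378.411 CPM in the highest PAR library and 378.391 in the lowest reserve library. On the lower side Rab11b was just inside, with 32.9673 CPM in the lowest PAR library and 32.967 in the highest reserve library. Ptpn14 was just outside, with 117.464 and 117.468 CPM.

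Of the endothelial markers 4 of 10 (Cldn5, Emcn, Kdr and Tie1) were at 0 in every library, and the summed level was 3.25 to 3.81 CPM in PAR, 3.00 to 4.78 in FRC1 and 4.33 to 4.82 in SRC3. Of the immune markers 4 of 12 were at 0 (Adgre1, Cd3e, Lyz2 and Tyrobp), with sums of 6.70 to 7.11, 6.99 to 7.56 and 7.89 to 8.37 CPM. Of the adipocyte markers 4 of 9 (Cfd, Cidec, Lep and Plin1), of the fibroblast markers 2 of 14 (Lum and Tcf21) and of the glial markers 2 of 12 (S100b and Sox10) were at 0 throughout. Fibroblast markers summed to 27.1 to 30.4 CPM in PAR, 26.8 to 27.7 in FRC1 and 34.6 to 44.3 in SRC3. Markers of pericytes and smooth muscle summed to 905 to 954, 1045 to 1169 and 538 to 575 CPM. Des, which is also a myoblast marker, alone made up 710 to 746 CPM of this sum in PAR, 595 to 647 in FRC1 and 463 to 490 in SRC3. Myh11, Cnn1, Rgs5, Pdgfrb, Kcnj8 and Abcc9 were under 1 CPM in every library. The part of cells of these types in the changes of Cspg4, Acta2 and the contractile genes was not tested.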

How the data were processed

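The deposited files hold raw read counts per gene, 1 file per library. The authors aligned reads with HISAT2 2.1.0 to GRCm38 and counted them with HTSeq 0.9.1, and DESeq2 is also named, per the submitters' processing notes. The counter's strand setting and the annotation release are among the details not given in the sources used here. The 5 summary lines at the end of each file were left out of library sizes and tests, so reads aligned to several places are not in any gene's count. Depth was 13012996 to 14336279 gene counts per library, at which 3 counts equal 0.209 to 0.231 CPM, and counting intervals are 95% intervals that cover counting error only.

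From these counts, CPM was computed per library total, and edgeR 4.0.16 (R 4.3.3) fitted a quasi-likelihood model with robust dispersion and TMM scaling to all 9 libraries in 3 groups, with 6 residual degrees of freedom. The contrast was the mean of FRC1 and SRC3 minus PAR, each reserve population with equal weight. Genes needed a count of 10 in enough libraries and 15 in total (12540 of 47729), and p-values were adjusted over all of them by Benjamini-Hochberg at 0.05. On simulated counts with 12393 genes for this contrast, 52%, 78%, 92% and 98% of genes changed 1.25, 1.5, 2 and 4-fold were called. Of 12197 unchanged genes, 326 were separated and 14 were both separated and called. The simulation changed 50 genes per fold by the same amount in FRC1 and SRC3 and drew each library independently. In the data 34.5% of genes passed the test and 33.5% differed between FRC1 and SRC3. The simulated shares are therefore not error rates of the results above.

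The members and the 43 gene lists were chosen with earlier results of these data known. Genes were named by a rule: the 12 higher and 12 lower genes of the set with at least 5 CPM and the largest shared change, up to 4 members of each list with at least 1 CPM, 10 fixed genes, up to 4 genes each way on which the populations oppose each other and up to 6 each way with the most even change. Other genes named in the text were chosen after their values were seen. Gene locations are from GENCODE M21 on GRCm38 (12520 of the tested genes), and promoter sequences are from RefSeq on GRCm38.p6. Where a symbol occurred on several gene identifiers the first was used, and 1 list member matched no gene. Alternatives were other scalings, filters and models (DESeq2 1.42.0, limma 3.58.1), a test against 1.5-fold, the reserve libraries as 1 group, a replicate block and each library left out in turn. A few genes of the lists are counted but not reported here by name.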

Additional observations from a re-analysis of the deposited data

Results flagged for a closer look

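The reserve populations differed from each other in several genes named above (SRC3 against FRC1, edgeR adjusted p under 0.05, values as log2 SRC3 minus FRC1). Among the contractile and differentiation genes the difference was -2.78 for Acta1, -3.21 for Myh7, -2.80 for Mybph, -2.30 for Tnni1, -2.47 for Myog, -0.75 for Mef2c, -0.51 for Myod1 and -0.65 for Pax7. Hspa5 was at 0.20, and 16 of the 26 higher stress genes differed between the populations. Among the genes with the largest shared change it was 2.73 for Cspg4, 1.246 for Cd28, -1.13 for St8sia4, -4.04 for Gpc4, -2.59 for Hoxb9, -5.16 for Slc43a3 and -5.25 for Slc7a8. It was -7.86 for Cdkn2a, -8.56 for Cdkn2b, -2.24 for H19 and -3.78 for Igf2. The genes on which the populations lay on opposite sides of PAR had -4.54 (Acta2), -3.32 (Fibcd1), -10.31 (Platr3), -3.12 (Apol10b), 5.23 (Cd24a), 4.31 (Gpnmb), 3.50 (Rab7b) and 3.30 (Sapcd1). Fitted values of Platr3, Slc43a3, Slc7a8 and Cdkn2b rest on SRC3 libraries with few or 0 counts. Of the 129 other named genes, 55 differed as well.

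In the lines of the files that name no gene, reads aligned to several places were at least 1.2525 per gene count in every reserve library, above the highest PAR library (1.20). Reads not aligned were at least 0.198 per gene count in every reserve library, against at most 0.195 in PAR.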

How the results depend on the processing

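With the 6 reserve libraries fitted as 1 group, 788 genes were higher and 869 lower by the test, and the set held 767 and 823. Tested against a 1.5-fold change, 141 were higher and 262 lower, and the set held 101 and 189. By construction, the first adds the difference between FRC1 and SRC3 to the spread, and the second asks for a larger change. Platr3 changed sign in the first (log2 0.43). Leaving out 1 library at a time gave 1379 to 2142 higher and 1777 to 2439 lower genes by the test, a set of 1097 to 1460 and 1249 to 1559, and 1503 to 1838 separated above and 1440 to 1697 below. Of the 2529 genes, 2100 to 2483 stayed in the set, and of the 158 named genes in it 151 to 158 kept their place. DESeq2 called 1657 higher and 2049 lower, and limma voom 1968 and 2369. With CPM scaled by TMM for the rule, 1294 and 1492 genes were separated and the set held 1172 and 1392. Whether the replicate numbers pair the samples was not settled. Same-numbered libraries of different groups correlated in their deviations from the group means at -0.06 to 0.09, others at -0.07 to 0.10. Pairs with a PAR library were at 0.02 to 0.09 with the same number and at -0.07 to 0.03 with another. Pairs of FRC1 with SRC3 were at -0.06 to 0.03 and at -0.06 to 0.10. With the replicate number as a block, 2001 genes were higher and 2348 lower and the set held 1225 and 1278. Genes below about 1 CPM rest on few counts.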
